A study of Mus musculus with 7 samples.

Results

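The genes described here are those of the cytosolic ribosome in mouse alveolar macrophages, together with Gm8210, a processed copy of the ribosomal protein gene Rpl29. They were taken by name: every row whose symbol begins with Rpl or Rps and a digit, plus Rplp0, Rplp1, Rplp2 and Rpsa, without symbols holding "-ps" and without the Rps6k kinases, and with Gm8210 added. This gave 91 of the 26143 rows that carry a symbol. They comprised 43 genes of the large subunit, 31 of the small subunit, 3 of the P stalk, 12 paralogs, Gm8210 and Rps19bp1. Paralogs here are close relatives of a ribosomal protein gene under another symbol. Among them, Rpl6l and Rps4l are annotated as pseudogenes by both RefSeq and GENCODE, and Rpl32l and Rpl37rt by GENCODE alone. Rps19bp1 matches the name pattern and encodes a partner of Rps19 that is not itself a ribosomal protein. No measured value entered the rule, but Rpl29 and Gm8210 were known to differ when they were named.

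RNA was sequenced from alveolar macrophages, the phagocytes that live in the airspaces of the lung, sorted from C57BL/6 mice that were 4 months old. The mice were either Cish KO (3 libraries) or WT (4 libraries). Cish encodes a member of the SOCS family, a brake on cytokine receptor signalling, and the series asks what its loss changes in these cells. How the Cish allele was made, and whether the genotypes were littermates, is not given. Nothing in the labels ties a library to its own mouse, and each p-value therefore measures the spread between these libraries only.

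The cytosolic ribosome is built from ribosomal RNA and a fixed set of proteins in a small subunit, which decodes the messenger, and a large subunit, which joins amino acids. Most of the proteins are needed in equal numbers, and their genes are expressed in nearly all cells. In mammals most of them have many processed pseudogenes, copies of the spliced messenger pasted back into the genome, so that a short read from the messenger can match several places.

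Total counts lay between 26780291 and 30989230 in the KO libraries and between 30637634 and 34483612 in the WT libraries. Reads of Cish gave 12.9, 14.3 and 10.9 CPM in KO libraries, against 46.3, 29.6, 38.1 and 67.9 CPM in WT libraries (log2 fold change -1.84, SE 0.26, edgeR adjusted p = 0.0519, DESeq2 adjusted p = 2.70e-11). CPM is the usual depth-scaled unit of read counts, here with TMM factors. The groups did not overlap, although reads of the gene remained in every KO library. All 12 markers of alveolar macrophages, among them Siglecf, Marco and Fabp4, were read in every library. Their summed level ran from 48730 to 82321 CPM in KO libraries and from 23607 to 59822 CPM in WT libraries, most of it from Chil3. Of the 12, 8 were higher and 4 lower in KO. By edgeR 0 were called, where 0.0862% of all genes were. Under an unadjusted edgeR p of 0.05 were 6 (4 higher, 2 lower), where 18% of all genes were. DESeq2 called 1 higher and 2 lower, where it called 6.11% of all genes. On the first principal component of all genes, which held 42.6% of the variance, WT 4 (-7.27) lay between the KO libraries (-43.9 to -18.3) and the other WT libraries (24.1 to 39.4).

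Rpl29 and Gm8210 moved in opposite directions. Rpl29, a protein of the large subunit, had 4.42, 3.38 and 3.38 CPM in KO libraries, against 37.7, 34.2, 31.8 and 36.0 CPM in WT libraries. These were 134, 87 and 92 reads in KO, against 1346, 1095, 998 and 1149 in WT. Every KO library was far below every WT library, and the gene was 9.33-fold lower (log2 fold change -3.22, SE 0.14, 95% confidence interval -3.53 to -2.92, adjusted p = 6.83e-06 by edgeR).

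Gm8210 had 27.5, 24.0 and 24.97 CPM in KO libraries, against 3.66, 3.66, 3.50 and 3.63 CPM in WT libraries. In reads this was 834, 618 and 679 in KO, against 131, 117, 110 and 116 in WT. Each KO library was above each WT library, and the row was 7.05-fold higher (log2 fold change 2.82, SE 0.11, 95% confidence interval 2.58 to 3.06, adjusted p = 6.83e-06 by edgeR). Both genes kept their call and direction when each library was left out in turn, under each scaling and filter tried, and with DESeq2 and voom; edgeR called 0.0552% to 2.25% of all genes when 1 library was left out.

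**Figure D1:**
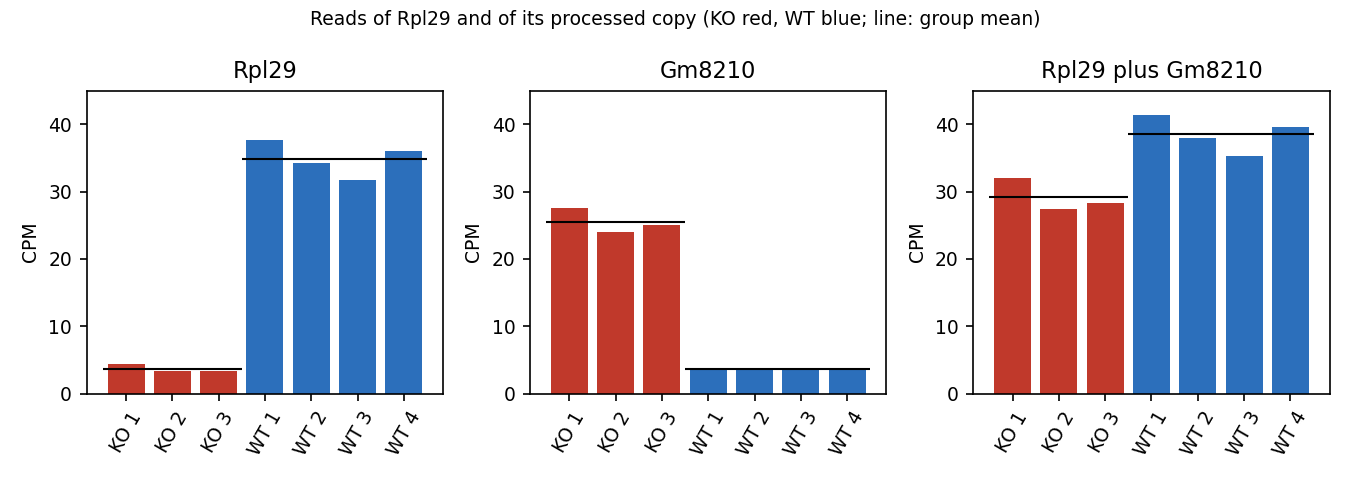
Depth-scaled counts (CPM, y axis) of Rpl29, of Gm8210 and of their sum in each of the 7 libraries (x axis), with KO in red, WT in blue and a line at each group's mean. The KO bars of Rpl29 stand between 3.38 and 4.42 CPM and those of Gm8210 between 24.0 and 27.5 CPM, the reverse of the WT bars.

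The sequences of Rpl29 and Gm8210 are almost the same, which is why the bases at which they differ are shown. The coding sequence of Rpl29 runs over exons 2, 3 and 4 of a transcript with 4 exons on chromosome 9. Gm8210 is annotated by GENCODE as a processed pseudogene on the plus strand of chromosome 1 (chr1:43189156-43189638, GRCm38), where it holds the same coding sequence without introns. Both are 483 bases long, 99.4% identical, and differ by 3 substitutions and no gap. Counted from 1 at the first base of the coding sequence, with the base of Rpl29 first and that of Gm8210 after the position, these are C72A, C300T and T423C, each at the third base of a codon. The lines below give 20 bases on each side of each difference on the plus strand, 5′ to 3′, with the differing base in capitals. The first difference lies in exon 3 of Rpl29 (chr9:106430322-106430362) and at chr1:43189207-43189247 in Gm8210. The others lie in exon 4 of Rpl29 (chr9:106431246-106431286 and chr9:106431369-106431409), which correspond to chr1:43189435-43189475 and chr1:43189558-43189598 in Gm8210. The sequences come from the GENCODE transcripts of GRCm38.
Rpl29, C72A: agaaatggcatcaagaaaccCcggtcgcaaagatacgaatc
Gm8210, C72A: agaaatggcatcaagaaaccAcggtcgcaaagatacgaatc
Rpl29, C300T: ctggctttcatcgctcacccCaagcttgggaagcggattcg
Gm8210, C300T: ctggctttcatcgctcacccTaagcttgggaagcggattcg
Rpl29, T423C: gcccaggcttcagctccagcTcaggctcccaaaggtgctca
Gm8210, T423C: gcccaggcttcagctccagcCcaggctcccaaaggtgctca

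Of the 434 possible stretches of 50 bases in the Rpl29 coding sequence, 284 are identical in Gm8210 and 150 hold at least 1 of the differing bases. Neither the read length nor the treatment of multiply matching reads is stated in the sources used here. A read from an identical stretch cannot be told apart between these genes. The deposited counts hold no base calls, so which base the reads carried at the 3 positions was not tested.

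Because reads can be divided between the rows in either way, their sum was also tested in place of both. The sum was 32.0, 27.4 and 28.4 CPM in KO libraries, against 41.3, 37.9, 35.3 and 39.6 CPM in WT libraries. The KO libraries were again all below the WT libraries, but the sum was only 1.32-fold lower, with a log2 fold change of -0.40 (SE 0.09, 95% confidence interval -0.60 to -0.19). This did not pass with edgeR (adjusted p = 0.0979) and passed with DESeq2 (adjusted p = 0.0114).

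The division of the pair's reads between its rows differed far more than their sum. Gm8210 held 86.2% of them in KO 1 (95% exact binomial interval 83.8 to 88.3), 87.7% in KO 2 (85.0 to 90.0) and 88.1% in KO 3 (85.6 to 90.3). In WT 1 it held 8.87% (7.47 to 10.4), in WT 2 9.65% (8.05 to 11.5), in WT 3 9.93% (8.23 to 11.8) and in WT 4 9.17% (7.64 to 10.9). The intervals cover counting error only. Within each genotype the libraries' intervals overlapped, and WT 4, which stood apart from the other WT libraries over all genes, did not stand apart here.

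Gm8210 is not the only copy of Rpl29 in the genome. At least 1 stretch of 50 coding bases of Rpl29 also occurs in 82 other genes of GENCODE, of which 11 have a row in the table. Gm13841, Gm6344 and Gm8210 are the closest, each with 3 edits, and of these Gm8210 alone was among the rows analysed here. Every 50-base coding stretch of Gm8210 also occurs in Gm13841. In the reference sequence, the bases shown therefore tell Gm8210 from Rpl29 but not from Gm13841. The sequence of these genes in the mice used was not tested. Among the other rows, 4931440P22Rik, a transcribed processed pseudogene that shares 38 of the stretches, had 3.30, 4.04 and 3.13 CPM in KO libraries, against 1.45, 1.63, 2.16 and 1.47 CPM in WT libraries. Its KO libraries were all above its WT libraries, and the log2 fold change was 1.05 (SE 0.23, edgeR adjusted p = 0.0950, DESeq2 adjusted p = 0.00353). Gm12704 (1.38 CPM ± 0.50 in KO and 1.22 CPM ± 0.19 in WT, SD, n = 3 and 4) and Gm10548 (0.517 CPM ± 0.208 in KO and 0.476 CPM ± 0.090 in WT) overlapped between genotypes. The remaining 7 rows held at most 13 reads in any library and were not tested.

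Rpl29 lies 0.865 Mb from Cish. The other members on chromosome 9 lie farther away and none was called. The nearest, Rps27rt at 7.68 Mb, had a log2 fold change of -0.06 (SE 0.10). All of its 50-base coding stretches also occur in Rps27 on chromosome 3, so a read from them cannot be placed on chromosome 9. Rpsa, a small-subunit protein also known as the laminin receptor (12.8 Mb), had 0.12 (SE 0.11), and Rpl14 of the large subunit (13.3 Mb) had 0.22 (SE 0.10). Rps27l, at 40.3 Mb, had 0.11 (SE 0.10). Rpl4, at 43.1 Mb, had 0.10 (SE 0.08), and Rplp1, at 45.4 Mb, had 0.09 (SE 0.15). Rps25 is the most distant at 62.9 Mb, with 0.27 (SE 0.10). Of the 50-base coding stretches, 98.8% in Rpsa, 98.2% in Rps25 and 77.9% in Rpl14 also occur in another gene. For Rplp1, Rps27l and Rpl4 the shared part was 60.8%, 49.0% and 20.2%. A read from a shared stretch cannot be placed by its sequence alone.

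Of the 91 members, 90 passed the filter on low counts. Rpl10l, a paralog known from the testis, did not, with 1 read in KO 1 and none in the other libraries. Rpl29 and Gm8210 were the members called by edgeR at an adjusted p below 0.05, 1 lower and 1 higher, where 0.0862% of the 12759 genes tested were called, 0.0392% lower and 0.047% higher. They were also the members called by DESeq2, which called 6.11% of all genes, 2.88% higher and 3.23% lower, and by voom, which called 0.361%. Of the other 88 members, 0 were called by edgeR, DESeq2 or voom, and 3 had an unadjusted edgeR p below 0.05, where 18% of all genes did. Their log2 fold changes ran from -0.38 to 0.34, and 81 lay within 0.25 of 0. The KO and WT libraries did not overlap for 3 of the 88, Rps25, Rpl6l and Rps2, all higher in KO, where 7.23% of all genes were higher without overlap. None was lower without overlap, where 8.72% of all genes were, and in both directions together 16% of all genes did not overlap.

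**Figure D2:**
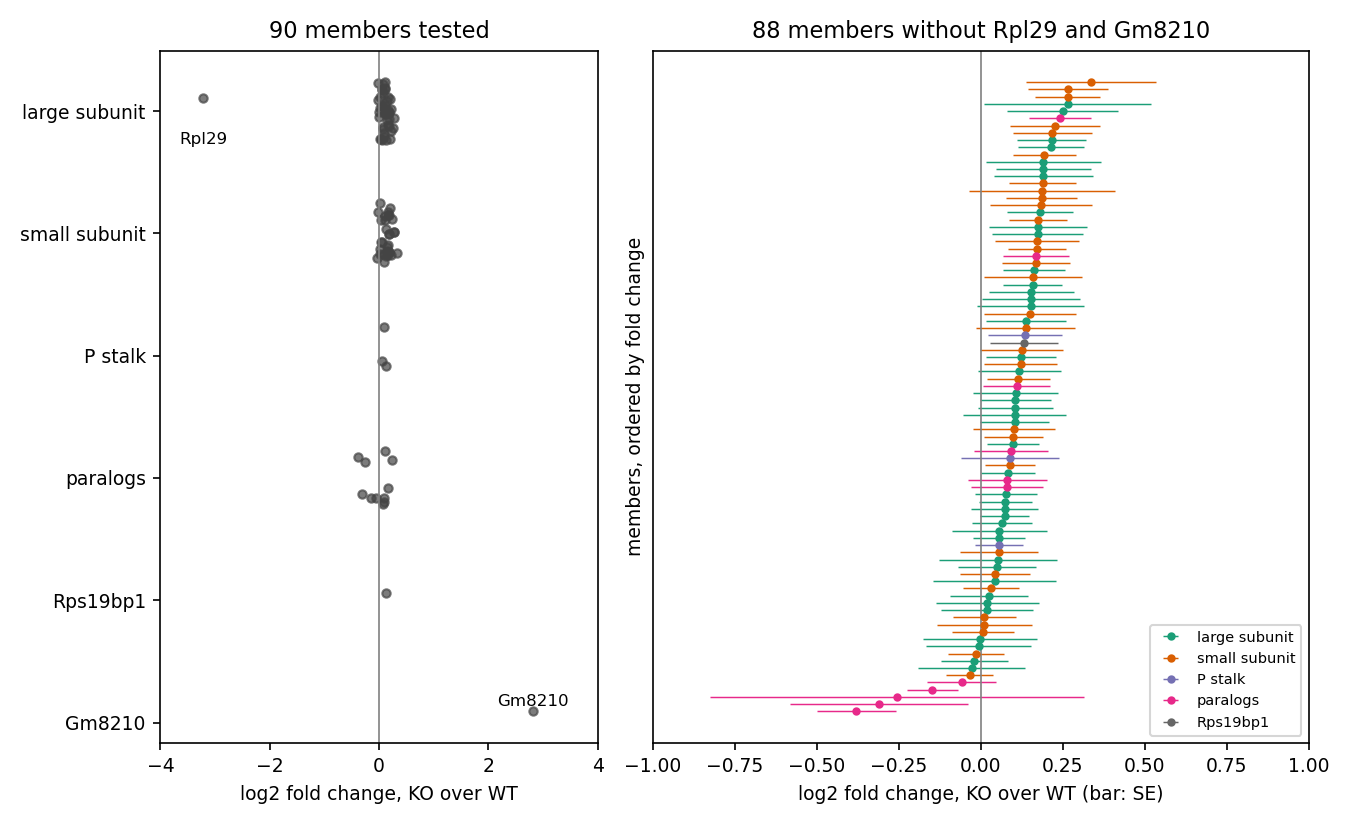
Log2 fold change of KO over WT (x axis) for the 90 members tested, by class (left; vertical position within a class has no meaning), and for the 88 members other than Rpl29 and Gm8210 in order of fold change with bars of 1 SE (right). Rpl29 at -3.22 and Gm8210 at 2.82 stand alone on the left, and the others lie between -0.38 and 0.34.

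The ribosomal proteins other than Rpl29 had small positive fold changes as a group. Of the 76 proteins of both subunits and the stalk, 70 had a log2 fold change above 0, with a median of 0.12, where 50.5% of all genes were above 0 with a median of 0.003. By class, 29 of 31 small-subunit genes were above 0 (median 0.15), as were all 3 of the stalk (median 0.09). Of the 43 large-subunit genes 38 were above 0, with a median of 0.10, Rpl29 among those below. None of the 76 was called. Without KO 1 the count above 0 was 49 of 76 and the median 0.02, and with library totals as the scaling it was 60 of 76, with a median of 0.07 where that of all genes was -0.05. Without WT 3 it was 64 of 76 (0.08), and without WT 4 it was 74 of 76 (0.19).

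The spread between single libraries was as large as that between genotypes. Each member's log2 CPM was set against its mean over the 7 libraries, and the median over the 88 members was taken in each library. It was 0.24 in KO 1, -0.07 in KO 2 and 0.03 in KO 3, against -0.08 in WT 1, -0.06 in WT 2, -0.15 in WT 3 and 0.10 in WT 4. KO 1 was the highest, with 83 of 88 members above their mean, and WT 4 was second, with 77, ahead of KO 3 with 58 and KO 2 with 21. In WT 1, WT 2 and WT 3, 18, 16 and 11 members were above their mean. The genotypes thus overlapped on this measure. The standard deviation of these medians between libraries of 1 genotype was 0.129, and the members' median log2 fold change, 0.11, was smaller.

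**Figure D3:**
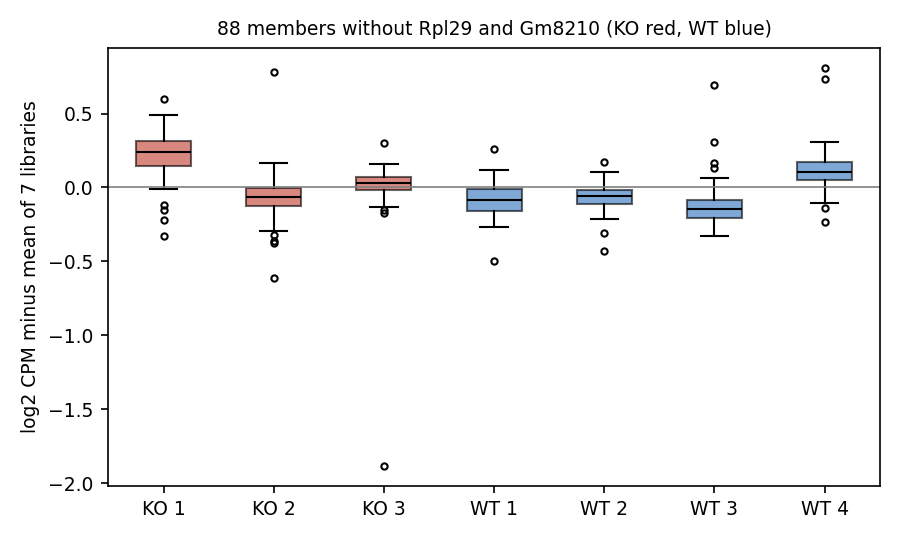
Log2 CPM of each of 88 members minus its mean over the 7 libraries (y axis), by library (x axis, KO in red, WT in blue), with boxes from the lower to the upper quartile, a line at the median and whiskers to the farthest point within 1.5 box heights. KO 1 has the highest median (0.24), WT 4 the next (0.10) and WT 3 the lowest (-0.15); the lowest point, in KO 3, is Rpl39l.

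All members together took 0.488% ± 0.043 of the counts in KO libraries and 0.477% ± 0.021 in WT libraries (SD, n = 3 and 4), a difference below the spread within either group. The summed level of the large subunit was 1828 CPM ± 151 in KO and 1726 CPM ± 113 in WT. That of the small subunit was 1741 CPM ± 154 in KO and 1622 CPM ± 108 in WT. The ratio of large to small was 1.05 ± 0.014 in KO and 1.06 ± 0.00756 in WT. The large-subunit sum holds the row of Rpl29, which was lower in KO as given above. It leaves out Gm8210, which averaged 25.5 CPM in KO and 3.61 CPM in WT. The ratio without Rpl29 was not tested. In bulk RNA of this kind, fewer cells of a type and less RNA per cell cannot be told apart.

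Markers of other cell types moved between these libraries as well. The 7 markers of endothelium and fibroblasts, among them Vwf and Pecam1, summed to 23.3 to 33.6 CPM in KO libraries and 13.1 to 16.7 CPM in WT libraries. All 7 were higher in KO, with 0 called by edgeR. Under an unadjusted edgeR p of 0.05 were 3 of them, where 18% of all genes were. DESeq2 called 2, where it called 6.11% of all genes. The 3 red blood cell haemoglobin genes in the table summed to 280.0 to 841 CPM in KO and 12.9 to 340.4 CPM in WT, with 3 of 3 higher in KO. The 7 lung epithelium markers summed to 175 to 196 CPM in KO and 194 to 379 CPM in WT, although 6 of the 7 were higher in KO. Of the 7, 3 had an unadjusted edgeR p below 0.05 (2 higher, 1 lower), and edgeR and DESeq2 called 0. The 1 lower marker had a log2 fold change of -2.25, without overlap between the groups, where 8.72% of all genes were lower without overlap. The 8 markers of other macrophages and monocytes summed to 592 to 1112 CPM in KO and 511 to 856 CPM in WT, with 7 of 8 higher in KO. Neutrophil markers summed to 26.4 to 47.1 CPM in KO and 32.3 to 56.1 CPM in WT, with 1 of the 3 tested higher in KO and Ly6g at 0 in every library. Of the 3, 2 had an unadjusted edgeR p below 0.05 (1 higher, 1 lower). By edgeR 0 were called, and by DESeq2 1 was called lower. T and NK cell markers summed to 2.98 to 11.4 CPM in KO and 2.77 to 6.45 CPM in WT (7 of 7 tested higher), and B cell markers to 6.21 to 29.9 CPM in KO and 5.16 to 17.1 CPM in WT (3 of 6 higher). In the red blood cell, other macrophage, T and NK cell and B cell lists, 0 markers had an unadjusted edgeR p below 0.05. In these lists 0 were called by edgeR or DESeq2. The part of all these markers in the small positive shift was not tested.

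Among single members of the small subunit, Rps25, which is needed for some forms of internal initiation in yeast and human cells, had the smallest edgeR p of those higher in KO. It had 54.7, 43.7 and 47.7 CPM in KO libraries, against 39.2, 42.1, 37.2 and 43.7 CPM in WT libraries. KO 2 and WT 4 were almost level, at 43.67 and 43.65 CPM, and the difference did not pass (log2 fold change 0.27, SE 0.10, edgeR adjusted p = 0.207). Without KO 1 it was 0.17 (adjusted p = 0.635). Rps20 (log2 fold change 0.19, SE 0.10) and Rps18 (0.18, SE 0.09) overlapped between genotypes, and without KO 1 they had 0.12 and 0.10. Rps9 was slightly below 0 (-0.03, SE 0.07), with 99.1, 97.8 and 99.3 CPM in KO libraries, against 102.7, 97.1, 97.6 and 107.2 CPM in WT libraries.

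In the large subunit, Rpl6 had 59.7, 50.6 and 50.1 CPM in KO libraries, against 45.8, 43.7, 42.3 and 52.5 CPM in WT libraries. WT 4 was above KO 2 and KO 3, so the groups overlapped (0.21, SE 0.10, edgeR adjusted p = 0.310). Rpl14 was similar, at 0.22 (SE 0.10, adjusted p = 0.316). Without KO 1 the log2 fold changes were 0.13 for Rpl6 and 0.11 for Rpl14. Rpl41, the smallest ribosomal protein, had a log2 fold change of -0.02 (SE 0.10). The stalk proteins, which recruit elongation factors to the large subunit, also overlapped between genotypes. Rplp0 averaged 241 CPM ± 11.1 in KO and 232 CPM ± 7.60 in WT, and Rplp1 176 CPM ± 42.0 in KO and 165 CPM ± 15.0 in WT. Rplp2 averaged 76.2 CPM ± 11.3 in KO and 69.4 CPM ± 6.18 in WT.

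Of the 11 paralogs tested, 6 had fold changes above 0 and 5 below. Rps4l, annotated as a transcribed pseudogene, is a relative of the small-subunit gene Rps4x. It was the lowest of the 88 and had the smallest edgeR p among them. It had 49.8, 48.6 and 64.2 CPM in KO libraries, against 68.0, 62.7, 77.6 and 73.8 CPM in WT libraries. KO 3 lay above WT 2, so the groups overlapped, and the log2 fold change of -0.38 (SE 0.12, 95% confidence interval -0.65 to -0.11) did not pass (edgeR adjusted p = 0.161). Over the alternatives its adjusted p ran from 0.0527 to 0.518, and its fold change stayed below 0 in each.

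Rpl6l, annotated as a processed pseudogene, is a relative of Rpl6, in which 61.8% of its 50-base stretches also occur. It had 46.3, 38.8 and 38.6 CPM in KO libraries, against 36.6, 33.1, 32.7 and 37.0 CPM in WT libraries. All KO libraries were above all WT libraries, without passing (0.24, SE 0.10, edgeR adjusted p = 0.231), and without KO 1 the log2 fold change was 0.15 (adjusted p = 0.665). Rpl7l1, a nucleolar relative of Rpl7, had 142, 161 and 144 CPM in KO libraries, against 169, 162, 161 and 168 CPM in WT libraries, and KO 2 lay above WT 3 (-0.15, SE 0.08, adjusted p = 0.355).

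Rpl3l, known as the muscle form of Rpl3, had 10.9, 8.28 and 15.7 CPM in KO libraries, against 11.5, 13.5, 11.5 and 21.2 CPM in WT libraries. Its highest library in each genotype was KO 3 and WT 4. Rpl39l, known from the testis, had 1.95, 2.91 and 0.404 CPM in KO libraries, against 1.46, 1.22, 2.74 and 2.97 CPM in WT libraries, a wide overlap at low counts. Rps27l, a p53 target related to Rps27, averaged 215 CPM ± 11.1 in KO and 199 CPM ± 24.1 in WT. Rpl36al averaged 128 CPM ± 16.5 in KO and 119.9 CPM ± 12.0 in WT, and Rpl37rt, a relative of Rpl37, 134 CPM ± 10.8 in KO and 119.6 CPM ± 12.0 in WT. Rpl32l averaged 14.7 CPM ± 1.98 in KO and 13.9 CPM ± 0.763 in WT, and Rpl22l1 22.6 CPM ± 2.85 in KO and 21.4 CPM ± 1.44 in WT. All 5 of these overlapped between genotypes. Rps19bp1, outside the ribosome, had a log2 fold change of 0.13 (SE 0.10).

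The counts differed widely between these genes. Among the rows with the most reads were Rps3 (306 CPM in KO and 299 CPM in WT), Rpl4 (265 CPM in KO and 247 CPM in WT), Rplp0, Rps27l, Rplp1, Rpl7l1 and Rps14 (141 CPM in KO and 140.2 CPM in WT). Levels between genes are given per kilobase of the main GENCODE transcript. On that scale the 77 proteins of both subunits and the stalk ran from 2.40 CPM per kb for Rpl39 to 340.4 CPM per kb for Rplp1, with a median of 38.8 CPM per kb over all libraries. Rps12 stood at 3.39 CPM per kb and Rps15a at 5.05 CPM per kb. These values depend on the transcript chosen. That of Rps15a has 5179 bases for a coding sequence of 393, and that of Rps20 has 3706, where that of Rps12 has 584. Other choices of transcript were not tested.

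The level counted for a gene went with how much of its coding sequence occurs elsewhere in the annotation. For 87 of the 91 members at least 1 stretch of 50 coding bases was also found in a transcript of another gene, and for 72 of them this held for over 50% of the stretches. The median was 90.3%, and Rpl3l, Rpl39l and Rps19bp1 were among the 4 members with 0. The 27 proteins with every stretch shared had a median level of 22.9 CPM per kb, the 40 with 50% or more but not all shared 41.1 CPM per kb, and the 10 with under 50% shared 125 CPM per kb. Across the 77 genes the Spearman correlation between level and shared part was -0.56, and Pearson's r with the log2 level was -0.54. Genes are not independent replicates, and all these values come from the same 7 libraries. The fold change between genotypes did not follow the shared part (Spearman correlation -0.06).

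**Figure D4:**
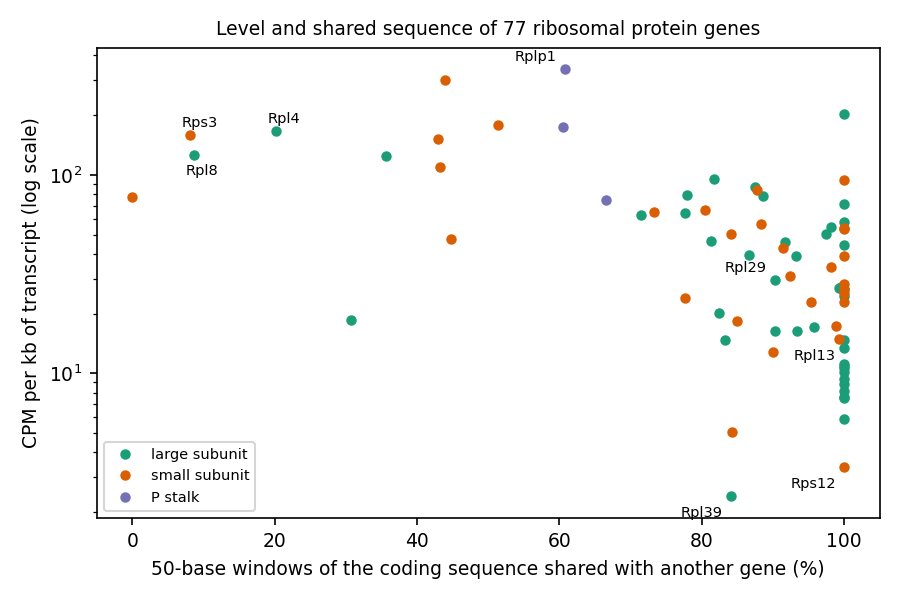
Level of each of 77 ribosomal protein genes in CPM per kb of transcript, averaged over the 7 libraries (y axis, log scale), against the percentage of its 50-base coding stretches that also occur in another gene (x axis), coloured by part of the ribosome. Most genes sit at the right, where levels reach down to 2.40 CPM per kb (Rpl39), while the 10 genes under 50% have a median of 125 CPM per kb.

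Reads were also counted under the names of pseudogenes. Whether these came from the messengers of the members or from the copies was not tested. For 89 members RefSeq was searched for copies that carry the member's name, and 63 members had 319 of them, of which 35 copies of 15 members have a row in the table. By sequence, 32 pseudogene rows shared at least 50% of their member's coding stretches, with 27 members. This count leaves out rows that are themselves members, except Gm8210. Among those left out, Rpl37rt had 126 CPM where Rpl37 had 38.9 CPM, and Rpl6l had 37.6 CPM where Rpl6 had 49.2 CPM. In 20 of these 32 the copy held more reads than the member. Rpl13-ps6 had 56.0 CPM where Rpl13 had 8.28 CPM, and Gm10132 had 32.7 CPM where Rpl23a had 5.23 CPM. Rps6-ps4 had 125 CPM where Rps6, the target of the S6 kinases, had 47.0 CPM, and Gm9794 had 115 CPM where Rpl23 had 41.8 CPM. These are reads over all libraries, not levels per length.

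None of these rows changed as Gm8210 did. Of the 31 others, 30 were above 0 and 1, Gm10045, was below, with log2 fold changes from -0.06 to 0.33 and a median of 0.15. None was called by edgeR, and 3 had an unadjusted p below 0.05, where 18% of all genes did. When each member was summed with its copies, whether those RefSeq names or those that share at least 50% of the stretches, edgeR called 0 members; the sum of Rpl29 and Gm8210 passed with DESeq2, as given above. The summed Rpl13 had a log2 fold change of 0.09 (SE 0.08) where Rpl13 alone had -0.03, with 87.1% of the sum from its copy. The summed Rps12, with 10 copies that held 86.7% of the sum, had 0.09 (SE 0.16) where Rps12 alone had 0.19. Among the copies RefSeq names, Rps4l-ps had 0.660, 0.427 and 0.662 CPM in KO libraries, against 1.01, 1.13, 0.986 and 1.35 CPM in WT libraries. Its groups did not overlap, at 11 to 43 reads, where 8.72% of all genes were lower without overlap. The log2 fold change was -0.93 (SE 0.31) and did not pass (edgeR adjusted p = 0.178, DESeq2 adjusted p = 0.160).

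The rows of Rps15a, a small-subunit protein, and of its copies differed between libraries of the same genotype. Rps15a had the highest log2 fold change of the 88, 0.34 (SE 0.20, edgeR adjusted p = 0.405), with 38.7, 27.7 and 22.7 CPM in KO libraries, against 18.1, 28.8, 24.1 and 23.2 CPM in WT libraries. Without KO 1 its log2 fold change was 0.10, below that of Rps25, and without KO 3 it was 0.50. KO 1 was the highest library and WT 1 the lowest, and the other libraries of both genotypes lay between 22.7 and 28.8 CPM.

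Rps15a-ps8, which is 90.8% identical to the Rps15a coding sequence, had 0.0330, 0.117 and 2.28 CPM in KO libraries, against 1.57, 0.0625, 0 and 2.19 CPM in WT libraries. Rps15a-ps2 (95.4% identical) had 1.32, 0.777 and 3.35 CPM in KO libraries, against 2.74, 0.938, 0.764 and 4.66 CPM in WT libraries. Both rows were high in KO 3, WT 1 and WT 4 and low in the other 4 libraries, across the genotypes.

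Rps15a-ps6 (98.7% identical) was also highest in KO 3, at 13.3 CPM, with 9.51 and 8.70 CPM in the other KO libraries, against 10.8, 8.38, 7.16 and 12.3 CPM in WT libraries. Rps15a-ps4 (97.5% identical) ran the other way, with 5.88, 5.91 and 4.04 CPM in KO libraries, against 3.02, 5.19, 4.74 and 3.72 CPM in WT libraries. Rps15a-ps5, with 12.3, 9.44 and 10.8 CPM in KO libraries, against 9.74, 8.66, 9.19 and 9.70 CPM in WT libraries, varied least. The 7 rows of the family summed to 67.8, 52.7 and 56.6 CPM in KO libraries, against 46.1, 52.0, 46.0 and 55.8 CPM in WT libraries. The sum overlapped between genotypes, and its log2 fold change of 0.24 (SE 0.11) did not pass (edgeR adjusted p = 0.294).

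**Figure D5:**
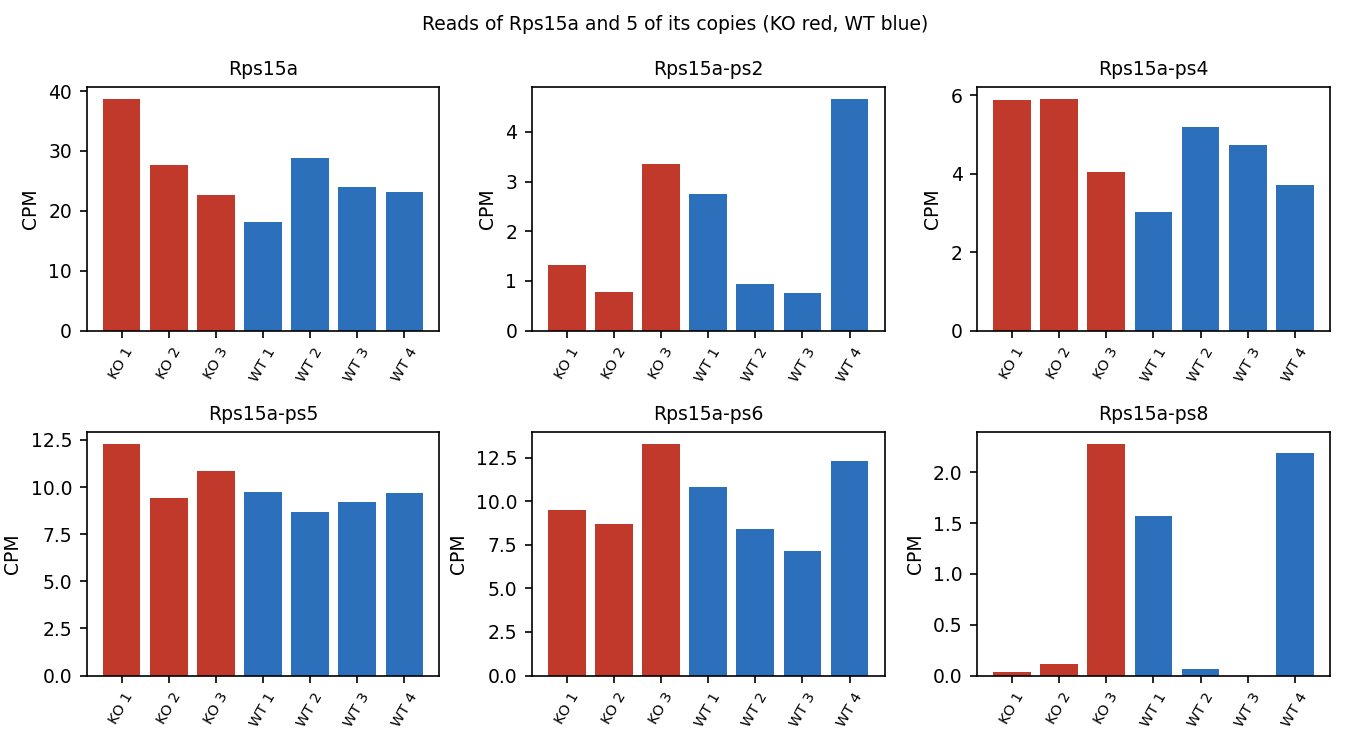
CPM (y axis, a scale of its own in each panel) of Rps15a and 5 of its pseudogene copies in each library (x axis), KO in red and WT in blue. Rps15a-ps2 and Rps15a-ps8 are high in KO 3, WT 1 and WT 4, and low in the other libraries of both genotypes.

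Other genes of the ribosome and of translation showed no call by edgeR in any list. The 3 further proteins of the cytosolic ribosome were all above 0, with a median log2 fold change of 0.14. Among them Rack1, a scaffold on the small subunit, had 172, 140 and 150 CPM in KO libraries, against 136, 121, 132 and 146 CPM in WT libraries (0.20, SE 0.10, edgeR adjusted p = 0.329), and it had 0.11 without KO 1.

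The 78 proteins of the mitochondrial ribosome were split, with 43 above and 35 below 0 and a median of 0.01. With library totals as the scaling 28 were above 0. By edgeR and DESeq2 0 of them were called, where 0.0862% and 6.11% of all genes were. An unadjusted edgeR p below 0.05 was found for 3 of the 78, where 18% of all genes had one. Mrps28 had 40.9, 34.6 and 31.6 CPM in KO libraries, against 31.2, 26.0, 26.7 and 26.4 CPM in WT libraries (0.37, SE 0.11, edgeR adjusted p = 0.144). Mrpl41 had 69.8, 66.9 and 58.8 CPM in KO libraries, against 51.2, 51.6, 55.1 and 55.0 CPM in WT libraries (0.29, SE 0.08, adjusted p = 0.133). In both, all KO libraries were above all WT libraries, for Mrps28 by a narrow margin between KO 3 and WT 1. Of the 78, 3 were higher and 2 lower without overlap, where 7.23% and 8.72% of all genes were.

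Of 50 genes of ribosome biogenesis, 19 were above 0 and 31 below, with a median of -0.08. Nob1, the nuclease that completes the small-subunit RNA, had 24.8, 24.7 and 31.2 CPM in KO libraries, against 34.7, 34.2, 35.1 and 33.6 CPM in WT libraries. The groups did not overlap (-0.36, SE 0.10), and it passed with DESeq2 (adjusted p = 0.0457) but not with edgeR (adjusted p = 0.133). Rrp9, of the U3 particle that acts in the processing of ribosomal RNA, had 24.6, 26.1 and 32.2 CPM in KO libraries, against 32.8, 33.1, 34.5 and 34.9 CPM in WT libraries (-0.29, SE 0.10, edgeR adjusted p = 0.193). Of the 50, edgeR called 0, with 6 at an unadjusted p below 0.05, where 18% of all genes were. DESeq2 called Nob1 alone, where it called 6.11% of all genes. Without overlap, 1 of the 50 was higher and 5 lower, where 7.23% and 8.72% of all genes were.

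Among 39 translation factors 25 were above 0, with a median of 0.04 (-0.01 with library totals). By edgeR or DESeq2 0 were called, where DESeq2 called 6.11% of all genes. An unadjusted edgeR p below 0.05 was found for 5 factors, where 18% of all genes had one. Tpt1, a translationally controlled protein, had 34.3, 33.5 and 31.1 CPM in KO libraries, against 26.1, 23.9, 26.9 and 30.8 CPM in WT libraries (0.29, SE 0.10, edgeR adjusted p = 0.183). Pabpc1, which binds the poly(A) tail, had 225, 206 and 217 CPM in KO libraries, against 185, 196, 184 and 191 CPM in WT libraries (0.19, SE 0.07, adjusted p = 0.215).

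The kinases named after Rps6 were kept apart from the ribosomal proteins. Of the 9 tested, 4 were above 0 and 5 below. By edgeR 0 were called, where 0.0862% of all genes were. An unadjusted edgeR p below 0.05 was found for 2, where 18% of all genes had one. Rps6ka1 had 116, 144 and 140 CPM in KO libraries, against 207, 194, 185 and 161 CPM in WT libraries (-0.48, SE 0.11, edgeR adjusted p = 0.0975, DESeq2 adjusted p = 0.00456). Rps6kb1, the S6 kinase downstream of mTOR, had 80.3, 70.9 and 79.1 CPM in KO libraries, against 60.4, 61.4, 67.1 and 62.0 CPM in WT libraries (0.29, SE 0.08, edgeR adjusted p = 0.124, DESeq2 adjusted p = 0.0376). The groups overlapped in neither gene, where 16% of all genes did not overlap. The call depended on the tool in both, and DESeq2 called 6.11% of all genes.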

How the data were processed

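Bulk RNA was measured in 3 Cish KO and 4 WT libraries. The deposited table holds raw counts per gene made by the authors with rsubread, per the file header and labels, and the submitters' processing notes name mm10 and DESeq2. Which annotation was used, the read length and how multiply matching reads were treated is not given in the sources used here. Per the labels' protocols libraries were made with Nextera XT, which does not mark strand, so antisense genes cannot be told apart. Of 27179 rows, 1036 carried no symbol and were left out (0.376% to 0.424% of counts).

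The counts were fitted with edgeR 4.0.16 in R 4.3.3, with filterByExpr (12759 genes), TMM scaling, and the quasi-likelihood F test on genotype over all 7 libraries, 2-sided, with Benjamini-Hochberg adjustment over all genes tested and a threshold of 0.05. Residual degrees of freedom were 5 and the common biological coefficient of variation 0.187. CPM use TMM-scaled library sizes, and centred log2 CPM a prior count of 2. Alternatives used other scaling factors and filters, DESeq2 1.42.0, limma 3.58.1 voom with quality weights, a replicate block, each library left out, and members summed with their copies. The sum over copies that share 50% of the stretches was chosen after seeing the data. The lowest chi-square per degree of freedom between libraries was 26.4, so no pair of libraries agreed within sampling noise.

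Coding sequences and transcripts are those of GENCODE M21 (GRCm38), positions and copy names those of RefSeq (GRCm38.p6). All 91 members matched RefSeq by symbol or synonym. Named genes were Rpl29, Gm8210, Cish, called members, the 8 members with the most reads, the 8 with the smallest edgeR p in each direction, tested paralogs, Rplp0, Rplp1, Rplp2, Rpsa, members on chromosome 9, and the 2 genes of each other list with the smallest p. Rps2, Rps12, the Rps15a family, the Rpl29-like rows and the pairs of member and pseudogene were named after their values were seen. The members, lists and alternatives were chosen with earlier results of these data known. Some genes that the rule would name are not reported here.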

Additional observations from a re-analysis of the deposited data

Results flagged for a closer look

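Among the genes named and summary values of the members per library, 48 sets of WT values were screened for a library far from the other 3. Chance flags about 1 in 20, but the sets are not independent. The 1 found was Mrps28, with 31.2 CPM in WT 1, against 26.0, 26.7 and 26.4 CPM in the other WT libraries and 31.6 to 40.9 CPM in KO libraries. Without WT 1, edgeR called 0 mitochondrial ribosomal proteins, as with all libraries, so Mrps28 did not pass there either. The cause of the value in WT 1 was not tested.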

How the results depend on the processing

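Rpl29 (log2 fold change -3.37 to -3.14) and Gm8210 (2.76 to 2.86) passed under all 17 alternatives fitted to each. Their sum stayed negative (-0.47 to -0.36) and passed with DESeq2 alone (-0.40, adjusted p = 0.0114). The number of members called was 2 throughout, but 0 by edgeR when members were summed with copies, whether named in RefSeq or sharing 50% of the stretches; the sum then takes in both Rpl29 and Gm8210. Ribosome biogenesis had 1 call with DESeq2, 1 without WT 4 and KO 3 together, and 0 to 1 over the fits that leave out 1 library, the 1 without KO 3; the cause was not tested. The members' median ran from 0.02 without KO 1 to 0.18 without KO 2. Counts of mitochondrial ribosomal proteins and translation factors called were 0 throughout. Replicate numbers did not pair the libraries (correlations of same-numbered deviations 0.04, 0.06 and 0.02). With the replicate block, edgeR called 430 genes in place of 11, members called were 2, their median was 0.17, Rpl29 had -3.22, Gm8210 2.82 and their sum -0.38 (adjusted p = 0.102). The whole-table count was 775 with DESeq2, 46 with voom, 397 without a filter, 284 without WT 4, 217 without KO 3 and 7 without WT 1. At low counts, as for Rpl39l, the spread limits what could be detected.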
